A study of Mus musculus with 8 samples.

Results

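Peaks of H3K56ac that lay over the start of 1 protein-coding gene and of no other gene made up 8043 of the 105600 intervals in the merged peak list of mouse muscle stem cells (MuSCs). A peak was a member when it lay on an autosome, was under 5000 bp wide and contained a transcription start site (TSS) of a protein-coding transcript of exactly 1 protein-coding gene and no TSS of any other gene in the GENCODE annotation. Members were 7.77% of the 103492 autosomal peaks, and they belonged to 7345 of the 20722 autosomal protein-coding genes, a share of 35.4%. Their median width was 2596 bp. They extended a median of 936 bp upstream and 1445 bp downstream of the TSS, and 93.3% of them covered exon 1 from end to end.

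The study profiled H3K56ac by ChIP-seq in MuSCs sorted fresh from C57BL/6 mice, and its labels describe 8 libraries in 4 groups of 2 replicates. Sirt6mKO mice carried Sirt6 alleles with exons 4 to 6 flanked by loxP sites together with Pax7 ICN Cre. The deacetylase gene was thus deleted in the Pax7 lineage, which includes muscle fibres as well as MuSCs. A ROSA26-YFP reporter was part of the same crosses. The paper calls its Control mice wild type in places, and elsewhere describes them as carrying the flanked alleles without Cre. Each genotype had H3K56ac libraries and input libraries, the latter being chromatin sequenced without immunoprecipitation. The peak list has 1 row for each merged interval, with no column for a genotype, a replicate or a signal, so that Control and Sirt6mKO could not be compared, no peak could be ranked by height and the number of reads behind a peak is not given in the list. The paper reports more H3K56ac peaks in Sirt6mKO than in Control MuSCs, and the peak counts it gives for single libraries differ widely. A member is therefore not known to be a peak of Control cells.

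H3K56ac is an acetylated form of histone H3 at a lysine on the side of the nucleosome where DNA enters and leaves. SIRT6 is a deacetylase that removes it, and EP300 is one of the acetyltransferases known to add it. Acetylated H3 is found at promoters and enhancers in use. Many mammalian promoters lie in CpG islands, stretches rich in the CpG dinucleotide that are usually free of DNA methylation, whereas many promoters of tissue-restricted genes are poor in CpG and some carry a TATA box, the element at which TBP places the transcription machinery.

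The promoters under the members ranged from CpG islands to sequence with hardly a CpG, and 7 of them are printed to show that range. Each is the 250 bases before the reference TSS, read 5′ to 3′ on the strand of the gene from GRCm38 (mm10). The reference TSS was the best supported protein-coding start of the gene in the peak. None of the printed bases overlaps an annotated exon. Capitals mark each match, on either strand, to TATAAA (bound by TBP), CCAAT (NF-Y box), GGGCGG (the GC box of SP factors), CCGGAAG (ETS), TGACGTCA (CRE), CGCATGCG (NRF1), TGAGTCA (AP-1) or AAGATGG (YY1). None of these motifs contains another, although single matches may overlap one another. Utrn, Dab2, Mstn and Myod1 are shown because the study or the MuSC marker list names them, and Lum because its window held no CpG. Hivep1 and Snrnp70 are shown because they held the most matches to a GC box and to an NRF1 motif among the members.
Utrn-205 (chr10:12869366-12869615, minus strand): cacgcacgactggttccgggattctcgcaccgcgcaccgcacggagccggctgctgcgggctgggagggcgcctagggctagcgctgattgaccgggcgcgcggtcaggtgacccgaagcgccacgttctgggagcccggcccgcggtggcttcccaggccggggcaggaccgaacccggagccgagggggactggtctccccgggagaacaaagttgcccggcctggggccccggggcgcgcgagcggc
Dab2 (chr15:6386348-6386597, plus strand): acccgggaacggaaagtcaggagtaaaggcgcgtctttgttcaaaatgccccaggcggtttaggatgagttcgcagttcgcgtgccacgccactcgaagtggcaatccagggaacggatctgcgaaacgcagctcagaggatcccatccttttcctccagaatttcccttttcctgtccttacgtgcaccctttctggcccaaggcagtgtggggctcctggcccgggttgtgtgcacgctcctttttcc
Myod1 (chr7:46376224-46376473, plus strand): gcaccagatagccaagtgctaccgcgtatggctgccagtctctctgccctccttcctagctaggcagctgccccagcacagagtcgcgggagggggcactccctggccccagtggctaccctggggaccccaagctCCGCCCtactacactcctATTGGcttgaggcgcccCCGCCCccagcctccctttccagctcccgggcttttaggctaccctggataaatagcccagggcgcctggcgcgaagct
Mstn (chr1:53061390-53061639, plus strand): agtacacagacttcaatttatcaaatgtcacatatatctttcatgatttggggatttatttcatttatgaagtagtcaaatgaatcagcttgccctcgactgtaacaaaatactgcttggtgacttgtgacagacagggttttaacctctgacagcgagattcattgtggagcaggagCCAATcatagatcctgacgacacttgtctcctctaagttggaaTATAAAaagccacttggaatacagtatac
Lum (chr10:97564878-97565127, plus strand): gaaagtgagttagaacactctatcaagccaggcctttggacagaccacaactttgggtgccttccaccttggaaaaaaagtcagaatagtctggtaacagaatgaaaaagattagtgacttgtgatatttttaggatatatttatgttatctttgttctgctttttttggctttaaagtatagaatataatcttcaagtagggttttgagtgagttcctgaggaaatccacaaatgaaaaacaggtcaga
Hivep1 (chr13:42051771-42052020, plus strand): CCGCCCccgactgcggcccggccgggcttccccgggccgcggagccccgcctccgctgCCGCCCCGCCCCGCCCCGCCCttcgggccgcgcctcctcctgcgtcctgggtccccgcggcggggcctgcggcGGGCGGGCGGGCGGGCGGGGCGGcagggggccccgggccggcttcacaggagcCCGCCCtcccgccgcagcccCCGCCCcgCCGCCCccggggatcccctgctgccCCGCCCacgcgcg
Snrnp70 (chr7:45395743-45395992, minus strand): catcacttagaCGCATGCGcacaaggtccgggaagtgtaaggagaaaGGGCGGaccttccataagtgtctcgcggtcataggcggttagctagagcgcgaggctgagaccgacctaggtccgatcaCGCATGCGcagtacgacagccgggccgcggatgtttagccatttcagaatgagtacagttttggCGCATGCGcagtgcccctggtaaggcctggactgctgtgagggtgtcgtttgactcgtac
The GC content and CpG observed/expected ratio of each window were counted from 250 bases before to 50 bases after the TSS. The ratio divides the number of CpGs by the number expected from the C and G content alone. In Utrn-205 the GC content was 74.7% and the ratio 0.990, with no match to any of the 8 motifs. Dab2 had 60.7% GC and a ratio of 0.833, also without a match. Myod1 had a GC content of 65.0% with a ratio of 0.427, and its matches were to the GC box and the NF-Y box. In Mstn, with 41.3% GC, a TATAAA match stood shortly before the TSS and a CCAAT match further upstream. Hivep1 held 15 overlapping or separate matches to the GC box at 87.0% GC, and Snrnp70 held 4 to CGCATGCG in the whole window.

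Members were wider than peaks away from a TSS and narrower than peaks over several genes. A wider interval is more likely to hold a TSS, or TSSs of several genes. Part of this order may therefore come from the grouping itself, which was not tested. The quartiles of their width were 1645.5 and 3506.5 bp, the range was 224 to 4999 bp, and the 95% interval of the median was 2555 to 2634 bp. The 83533 autosomal peaks under 5000 bp with no TSS had a median width of 835 bp (interval 831 to 839), and the 3349 that held TSSs with no protein-coding transcript had 1487 bp (interval 1418 to 1549). Peaks under 5000 bp over TSSs of 2 or more coding genes were wider than members, at a median of 3528 bp (interval 3439 to 3606, n = 866), and those over 1 coding gene plus a TSS of another gene without a coding transcript there stood at 3182 bp (n = 1366). The intervals of these medians did not overlap. They come from binomial order statistics and cover counting error only, since peaks are not replicates. Although members were 7.62% of all peaks, they held 11.4% of the length that the list covers, 20.9 Mb in all.

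Most member peaks reached further into the gene than away from it. The downstream extension was the longer in 5476 of 8043 members (68.1%, Wilson 95% interval 67.1 to 69.1), and the median of the difference was 427 bp. The quartiles were 440 and 1495.5 bp upstream and 879 and 2071.5 bp downstream. The TSS lay at a median of 39.6% of the peak, counted from its upstream edge. It fell within 20% of the peak length from the upstream edge in 20.6% of members, between 20% and 40% in 30.1%, between 40% and 60% in 30.8%, between 60% and 80% in 13.3%, and closer to the downstream edge in 5.23%. Both flanks were at least 500 bp long in 64.7% of members. The upstream edge was within 100 bp of the TSS in 7.26% and the downstream edge in 2.09%. An extension of at least 2000 bp occurred downstream in 27.4% and upstream in 12.1%.

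**Figure D1:**
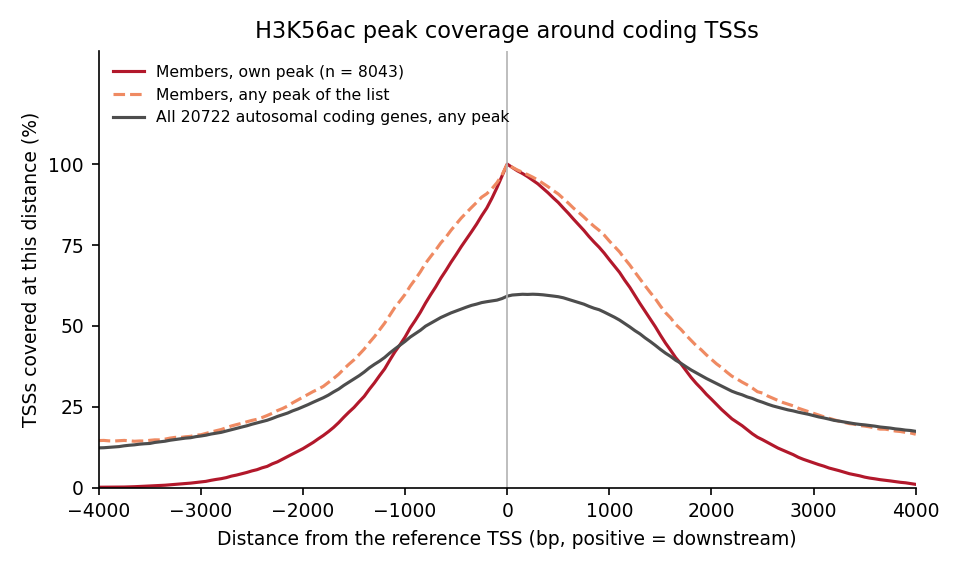
Percent of reference TSSs whose surroundings lay in a peak, by distance from the TSS in bp (negative is upstream): member peaks alone, members with any peak of the list, and all 20722 autosomal coding genes with any peak. The members' own peaks covered 70.5% of positions 1000 bp downstream and 46.6% of those 1000 bp upstream.

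The plot of coverage around the TSS shows the same asymmetry position by position. Every member covered its TSS by definition. At 500 bp, 72.0% of members still covered the upstream side and 88.1% the downstream side. At 2000 bp the shares were 12.1% and 27.4%, and when all peaks of the list were counted around the same TSSs they were 28.0% and 39.7%, because other peaks lay close by. Over all autosomal coding genes, 59.2% of best-ranked TSSs lay in a peak, and coverage was highest, at 59.8%, 250 bp downstream.

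**Figure D2:**
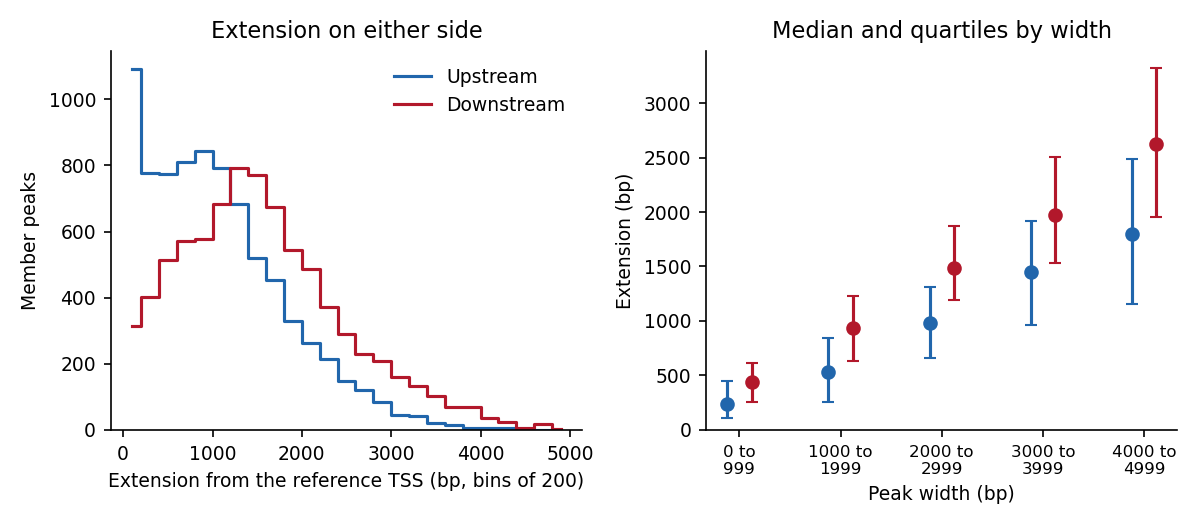
Left, number of member peaks by extension upstream and downstream of the reference TSS in bins of 200 bp. Right, median extension in bp with quartiles as bars, by peak width in bp: the downstream median was the higher in each of the 5 width classes, from 439 against 242.5 bp in the narrowest to 2624 against 1795 bp in the widest.

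Both sides lengthened as peaks widened, which is largely built in because the 2 sides make up the width. In the 886 members under 1000 bp the medians were 242.5 bp upstream and 439 bp downstream, and 73.8% of them covered all of exon 1. In the 2286 members of at least 2000 and under 3000 bp the medians were 985 and 1488 bp, and 97.0% covered exon 1. In the 1139 members of at least 4000 bp the medians were 1795 and 2624 bp. The share that reached further downstream was between 64.4% and 71.5% in all 5 width classes. Across the 8043 members the extensions on the 2 sides were nearly unrelated (Spearman's rho = 0.0894, a description over peaks that share 1 list and 1 width limit). Genes on either strand gave the same picture, with upstream medians of 938 and 935 bp and downstream medians of 1438 and 1451 bp on the plus and minus strands. Over the 19 autosomes the upstream median ranged from 828 to 1001.5 bp and the downstream median from 1310 to 1620 bp.

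Peaks of at least 5000 bp over a single coding gene were more lopsided. In those 1809 peaks the medians were 2013 bp upstream (interval 1912 to 2122) and 4614 bp downstream (interval 4537 to 4756). The downstream side was the longer in 76.0% (Wilson interval 74.0 to 77.9), above the members' interval, and the TSS lay at 29.0% of the peak. The width limit alone divided the 2 classes. Just inside it were Abcc1 (4999 bp), which encodes a drug-efflux transporter, Ago3 (4998 bp), a small-RNA binding protein, and Sem1 (4998 bp), a proteasome lid protein. Just outside it were the zinc finger gene Zfp398 (5001 bp), D16Ertd472e (5004 bp) and the zinc finger gene Zfp948 (5004 bp). Abcc1 also shows how merging by overlap leaves neighbours apart, since the next peak of the list began after a gap of 1 bp downstream.

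The members at the extremes of reach lay almost wholly on 1 side of the TSS. Gsk3b, which encodes a kinase of glycogen and Wnt signalling, had 4942 bp upstream and its downstream edge on the TSS base itself, so that 0.0620% of exon 1 was covered. Next came Stag1, a cohesin subunit, with 4539 bp upstream and 53 bp downstream. Glyctk, a glycerate kinase, followed with 4416 bp, Cndp2, a dipeptidase, with 4335 bp and Trafd1 with 4266 bp. In all 5 the downstream edge was in exon 1. For Gsk3b the next peak of the list lay 171 bp further downstream and for Stag1 423 bp, so that the downstream side was not bare of H3K56ac peaks.

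At the other extreme, Ccdc82 had 80 bp upstream and 4908 bp downstream and covered 96.2% of its first intron of 5049 bp. Ppp1r2, an inhibitor of protein phosphatase 1, reached 4836 bp downstream, Ehd2, an ATPase of caveolae, 4774 bp, Gnaq, a G protein alpha subunit, 4763 bp and Tmem87b 4750 bp. Their upstream extensions were between 80 and 227 bp. Among the widest members were also Tnip1 (4997 bp), a regulator of NF-kappaB signalling, with 4695 bp downstream, and Magi3 (4995 bp), a scaffold protein, with 3043 bp upstream. The narrowest members were Plppr3 with 224 bp, Csf1r with 229 bp, Prkag2, a subunit of AMP-activated kinase, with 237 bp, the phospholipase gene Ddhd2 with 249 bp and the chemokine gene Cxcl3 with 272 bp. Of these, Plppr3 covered 21.0% of its first exon and Cxcl3 43.5%, while the other 3 covered all of it.

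Exon 1 lay inside the peak in nearly all members. It had a median length of 211 bp, and every base of it was covered in 7508 members (93.3%, Wilson interval 92.8 to 93.9). Under 50% of it was covered in 292 members (3.63%). The downstream edge stood a median of 1172 bp past the end of exon 1. The share with a whole exon 1 fell with its length, from 98.3% of the 1316 members with an exon 1 under 100 bp to 70.1% of the 278 with at least 800 and under 1600 bp and 20.9% of the 153 with at least 1600 bp. Over the same classes the median downstream extension lay between 1254.5 bp, for the shortest exons, and 1639 bp, for the longest. The start codon of the reference transcript was covered in 5206 of 7852 members with an annotated one (66.3%).

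**Figure D3:**
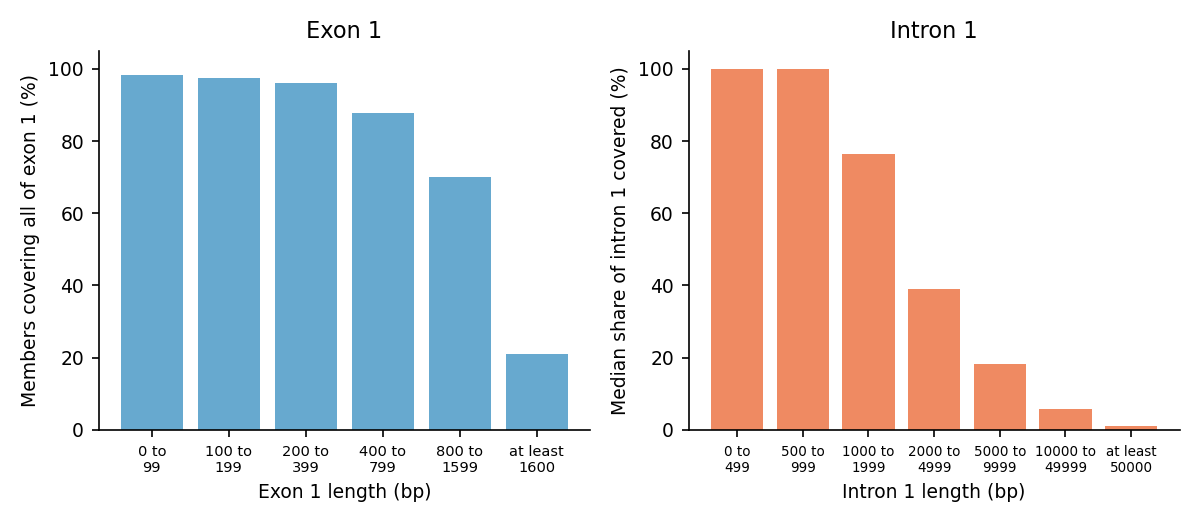
Left, percent of members that covered all of exon 1, by length of exon 1 in bp. Right, median percent of intron 1 covered by the member peak, by length of intron 1 in bp, over the 7893 members with an intron. The left bars fall from 98.3% to 20.9% and the right bars from 100% to 1.10%.

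The downstream edge lay in intron 1 in 5523 members (68.7%). It lay in exon 1 in 536 (6.66%), in exon 2 or beyond in 1876 (23.3%), and at or past the end of the transcript in 108 (1.34%). The first intron of the 7893 members with more than 1 exon had a median length of 3669 bp, of which a median of 901 bp, or 26.8% (interval 25.4 to 28.2), lay in the peak. The quartiles of that share were 5.93% and 97.8%. It was covered whole in 1950 members (24.7%) and not touched in 421 (5.33%). With all peaks of the list counted, the median share of intron 1 covered was 47.6%.

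How much of intron 1 was covered followed the length of the intron, while the reach of the peak did not. From introns under 500 bp (1140 members) to introns of at least 50000 bp (558 members), the median share covered fell from 100% to 1.10%. Over the same 7 classes the median downstream extension stayed between 1344 and 1534 bp. Spearman's rho of intron 1 length with downstream extension was 0.0609 over 7893 members, again a description over peaks of 1 list. The longest first introns covered whole were those of Fndc3a (3779 bp), Atp6v1g1 (3585 bp), which encodes a subunit of the vacuolar proton pump, Pitx3 (3447 bp), a homeodomain transcription factor expressed in muscle, Irf8 (3407 bp), an interferon regulatory factor, and Hint3 (3372 bp). All 5 peaks were at least 3972 bp wide, and the upstream extension was short in Atp6v1g1 (66 bp) and Pitx3 (182 bp).

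Which start of the gene a member covered went with its shape. Members that held the best-ranked coding TSS of the whole gene (6520, or 81.1%) had medians of 998 bp upstream and 1524.5 bp downstream and a width of 2736 bp. The other 1523 members held only alternative coding TSSs. Their width was 1754 bp, their extensions were 632 and 936 bp, and their median CpG ratio was 0.437 against 0.727. The most upstream coding TSS of the gene lay in 79.2% of members. In 48.9% of members the gene had 1 distinct coding TSS in the peak, and the highest number in a peak was 16. Of the 7345 genes, 6750 owned 1 member, 510 owned 2, 68 owned 3 and 16 owned 4, while Tmcc3 owned 5. A further TSS in a peak of at least 5000 bp was found for 400 of the genes (5.45%).

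Neighbouring peaks were common. The next peak lay a median of 6621 bp away upstream and 7153 bp downstream, and under 1 kb away in 30.5% and 30.4% of members. Both neighbours were under 1 kb away in 10.6%, and 22.6% of members had no other peak within 10 kb. Members overlapped the body of another coding gene in 600 cases (7.46%).

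The genes that the study and the marker lists name gave worked examples. Utrn, which encodes utrophin, the relative of dystrophin, had 2 members on the minus strand of chromosome 10. The member at the start of Utrn-205, a transcript of 75 exons, lay at chr10:12866223-12870069 on GRCm38 and was 3847 bp wide. It ran 704 bp upstream and 3142 bp downstream, over all of exon 1 (611 bp) and 36.1% of the 7019 bp first intron. Other peaks of the list raised the covered share of that intron to 67.1%, and the nearest began 1069 bp past the downstream edge. The guide RNA positions that the study lists for its downstream utrophin enhancer, read as mm10, lie beyond that intron. On that reading the start the paper calls commonly used is not that of Utrn-205, and these shares do not describe the enhancer. The other member, over the internal start Utrn-204, was 622 bp wide and ended 22 bp downstream of its TSS. Mstn, which encodes myostatin, a secreted inhibitor of muscle growth, had a member of 4697 bp at chr1:53059461-53064157 with 2179 bp upstream and 2517 bp downstream. It covered exon 1, the whole first intron of 1741 bp and part of exon 2. Dab2, an endocytic adaptor, had a member of 3254 bp at chr15:6385749-6389002, with 849 bp upstream and 2404 bp downstream, which took in 6.93% of a first intron of 29873 bp.

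The other study genes fell outside the class. The starts of Pax7, Jun and Hspa2 lay in peaks of at least 5000 bp, and those of Sirt6 and Ep300 lay in smaller peaks together with a TSS of another gene. No TSS of Ptpn22 lay in a peak, and Dmd is not autosomal.

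Among the 20 MuSC markers, 17 had a TSS in a peak of at least 5000 bp and the other 3 owned members, so that all 20 had a peak over a start. Over all autosomal coding genes, 35.4% owned a member, 13.6% owned none but had a TSS in a peak of at least 5000 bp and 37.6% had no TSS in a peak. Myod1, the myogenic determination factor, had a member of 2720 bp at chr7:46375213-46377932 with 1261 bp upstream and 1458 bp downstream, which covered exon 1 (826 bp) and the whole first intron (440 bp). Met, the receptor of hepatocyte growth factor, had members of 4033, 2655 and 3327 bp over 3 separate starts, with 815, 703 and 2534 bp upstream and 3217, 1951 and 792 bp downstream. Cdh15, M-cadherin, had a member of 599 bp that ended 68 bp past the TSS. The next peak began 301 bp further on, and all peaks together covered 97.6% of its first intron.

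Some markers of other cell types also owned members. These lists hold 4 to 6 genes each, and their counts stand beside the 35.4% of all coding genes with a member and the 37.6% with no TSS in a peak, with no test between them. The sort removed cells with Sca1, CD45 or CD31 on the surface. It kept cells that were Integrin-a7+/CD34+ or carried a Pax7 reporter (GFP or YFP). When the study reanalysed its sorted cells, their purity fell well short of complete. The methods do not say which of these sorts the ChIP-seq cells came from. Of 6 fibro-adipogenic markers, 4 owned members: Dcn (3674 bp), Lum (2063 bp), Col1a1 (1576 bp) and Pi16 (623 bp), which encode matrix proteins and a peptidase inhibitor. Pdgfra shared its peak with another gene and Ly6a, the gene of Sca1, had no TSS in a peak. Of 6 endothelial markers, Kdr, a VEGF receptor, owned a member of 1139 bp and Tek had a wider peak, while the starts of Pecam1, Cdh5, Emcn and Tie1 had none. Of 6 immune markers only Csf1r (229 bp) had a peak over a start, and Ptprc, the gene of CD45, had none. Of the Schwann cell markers, Mbp owned a member (2875 bp) and Sox10 had no TSS in a peak. Of 6 myofibre markers, Ryr1, the calcium release channel, owned a member (2259 bp), Myh4 shared a peak, and Acta1, Ckm, Ttn and Tnnt3 had none. The part of other cells in these peaks was not tested.

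Gene functions are given as the share of a list's autosomal genes that owned a member, against 35.4% (Wilson interval 34.8 to 36.1) of all 20722 autosomal coding genes. Of all genes, 13.6% owned no member but had a TSS in a peak of at least 5000 bp, 13.3% had one only in a smaller peak with another gene and 37.6% had no TSS in a peak. The lists are families of gene symbols, and no test was run on them. A list can hold few members because its peaks were wide or shared rather than missing, so that all classes are needed to read it.

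**Figure D4:**
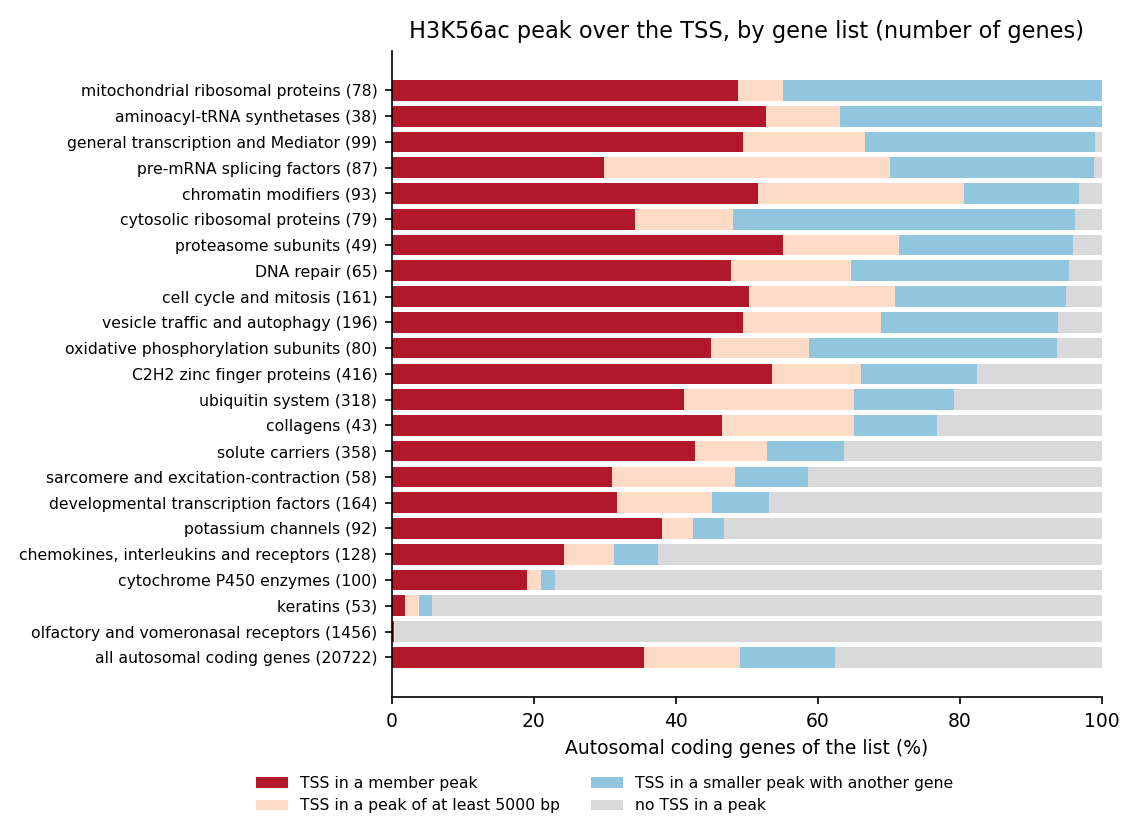
Percent of the autosomal coding genes of each list with a TSS in a member peak, in a peak of at least 5000 bp, in a smaller peak with another gene, or in no peak, with the number of genes in brackets and lists in order of the share with no peak. Each gene counts once, in the first of these classes that applies. Mitochondrial ribosomal proteins and aminoacyl-tRNA synthetases have no gene without a peak, and olfactory and vomeronasal receptors have 99.5%.

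Genes of protein synthesis nearly all had a peak over a start. All 78 mitochondrial ribosomal protein genes did, 38 (48.7%) through a member and 35 through a shared peak. All 38 aminoacyl-tRNA synthetase genes, which load tRNAs, did so too, 20 (52.6%) through a member. The 79 cytosolic ribosomal protein genes owned members in 27 cases (34.2%), close to the share of all genes, while 38 lay in shared peaks and 3 in none. In those 27 members the downstream side was the longer in 92.6%, with medians of 1216 bp upstream and 1901 bp downstream. The median share of intron 1 covered was 100%, with a median exon 1 of 95 bp. The 39 mitochondrial ribosomal members were nearly even, with medians of 1207 and 1405 bp, and 51.3% reached further downstream.

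The widest and narrowest members of these lists were as follows. Rps24 (4601 bp) and Rpl14 (4476 bp) were the widest of the cytosolic ribosomal genes, and Rplp0 (1543 bp) and Rpl27 (2173 bp) the narrowest. Mrpl58 (4430 bp) and Mrpl20 (4025 bp) stood against Mrpl34 (1804 bp) and Mrpl36 (2160 bp), and both of the latter peaks ran past the end of their short transcripts. Gars (4782 bp) and Yars2 (3857 bp) stood against Tarsl2 (1012 bp) and Tars2 (1587 bp).

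Genes of nuclear and housekeeping machinery also nearly all had a peak over a start. Members were owned by 27 of 49 proteasome genes (55.1%), 48 of 93 chromatin modifier genes (51.6%) and 81 of 161 genes with cell cycle or kinesin symbols (50.3%). The same held for 97 of 196 vesicle traffic and autophagy genes (49.5%) and 49 of 99 general transcription and Mediator genes (49.5%). It also held for 31 of 65 DNA repair genes (47.7%) and 36 of 80 oxidative phosphorylation genes (45.0%). No more than 6.25% of any of these lists had no TSS in a peak, against 37.6% of all genes. Splicing factors owned members less often, 26 of 87 (29.9%), and were the list with the highest share in peaks of at least 5000 bp, 35 genes (40.2%), while 1 had no peak. Their 26 members were also the widest by list, at a median of 3535.5 bp. The 131 of 318 ubiquitin system genes with a member (41.2%) were nearer to the background, and 66 (20.8%) had no peak.

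The named genes at the ends of these lists spanned most of the allowed width. Among proteasome genes, Psmf1 (4577 bp) and Psmd11 (4550 bp) were widest, and Psmc4 (1302 bp) and Psmb11 (1469 bp), the thymus-specific subunit, narrowest. Among chromatin modifiers, the demethylase genes Kdm4a (4900 bp) and Kdm8 (4770 bp) stood against Setd5 (432 bp) and Kdm1b (752 bp). In the list of cell cycle and kinesin symbols, Plk3 (4994 bp) and Kif11 (4462 bp), a mitotic motor with 3033 bp upstream, stood against Cenpf (669 bp) and Cdk14 (789 bp). For DNA repair, Parp14 (4949 bp) and Parp1 (4938 bp), the main poly(ADP-ribose) polymerase, stood against Fancl (1396 bp) and Brca1 (1517 bp). For vesicle traffic, Rab43 (4984 bp) and Rab34 (4901 bp) stood against Rab36 (1168 bp) and Exoc6 (1171 bp).

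In the remaining machinery lists, Taf7 (4844 bp), with 3637 bp upstream, and Polr2m (4783 bp) were the widest of the general transcription genes, and Med12l (1223 bp) and Taf1b (1500 bp) the narrowest. Ndufv2 (4987 bp), of respiratory complex I, and Atp5j2 (4496 bp), of ATP synthase, stood against Cox7a1 (1028 bp) and Cox8b (1304 bp), the muscle-type subunits of cytochrome c oxidase. Snrpb (4949 bp) and Prpf38b (4939 bp) covered their first introns whole, while Srsf12 (1676 bp) and Lsm5 (2110 bp) were the narrowest splicing members. In the ubiquitin system Rnf168 (4900 bp) and Fbxl20 (4890 bp) stood against Fbxl13 (550 bp) and Trim9 (578 bp).

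Genes with the symbols of zinc finger proteins, many of them C2H2 repressors that bind DNA, owned members in 223 of 416 cases (53.6%, Wilson interval 48.8 to 58.3). Of the 416, 73 (17.5%) had no peak. Their 234 members were close to even, with medians of 1214.5 bp upstream and 1434 bp downstream. The widest were Zfp638 (4941 bp) and Zfp318 (4934 bp), with 4389 and 4104 bp downstream, and the narrowest Zfp808 (478 bp) and Zfp971 (528 bp). Developmental transcription factors of the Hox, Sox, Fox, Pax and related families owned members in 52 of 164 cases (31.7%), while 77 (47.0%) had no peak. Their 58 members were narrow, at a median of 1769 bp, with a short upstream side of 417 bp against 1133 bp downstream and a long exon 1 of 464 bp. Foxp1 (4753 bp) and Tbx4 (4750 bp), a hindlimb factor, were widest, and Irx2 (547 bp), with its downstream edge inside exon 1, was among the narrowest.

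Genes of the muscle fibre and of the matrix were mixed. Of 58 sarcomere and excitation-contraction genes, 18 (31.0%, Wilson interval 20.6 to 43.8) owned members and 24 (41.4%) had no peak. Actn2 (4778 bp), alpha-actinin of the Z disc, had 4639 bp downstream and Myl9 (4384 bp), a smooth muscle and non-muscle myosin light chain, had 3831 bp upstream. Tnni2 (497 bp), fast troponin I, and Myl3 (880 bp), slow light chain, were the narrowest. Of 43 collagen genes, 20 (46.5%, interval 32.5 to 61.1) owned members, with Col6a6 (4652 bp) and Col4a1 (4416 bp) the widest and Col6a5 (538 bp) and Col17a1 (921 bp) the narrowest. Their median width was 1947.5 bp.

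Membrane transport and immune lists were nearer to the background or below it. Of 358 solute carrier genes 153 (42.7%) owned members and 130 (36.3%) had no peak, with Slc25a4 (4987 bp), the mitochondrial ADP/ATP exchanger of muscle, and Slc38a3 (4907 bp) widest and Slc4a2 (542 bp) and Slc7a10 (574 bp) narrowest. Of 92 potassium channel genes 35 (38.0%) owned members and 49 (53.3%) had no peak. Their members had the lowest median width of the lists with over 6 members, 1665 bp, and covered a median of 4.45% of intron 1. Kcna2 (3689 bp) and Kcnk13 (3340 bp) were widest, and Kcnj9 (376 bp) was narrowest. Genes with the symbols of chemokines, interleukins and their receptors owned members in 31 of 128 cases (24.2%), led by Il15 (4015 bp) and Il1r1 (3899 bp). At the other end were Cxcl3 (272 bp) and Il4i1 (637 bp), the latter listed by its symbol alone.

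The lowest shares were in lists of genes used mainly outside muscle. Cytochrome P450 genes owned members in 19 of 100 cases (19.0%), among them the sterol synthesis enzyme gene Cyp51 (4432 bp) and Cyp2j6 (4703 bp) at the wide end and Cyp2j13 (608 bp) and Cyp46a1 (613 bp) at the narrow end. Of 53 keratin genes 1, Krt222 (889 bp), owned a member, and 50 had no peak. Of 1456 olfactory and vomeronasal receptor genes 5 did (0.343%, Wilson interval 0.147 to 0.801), through 6 peaks, of which Olfr455 (4682 bp) and Olfr94 (1362 bp) were widest and Olfr1033 (673 bp) and Olfr156 (886 bp) narrowest.

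Members had promoters richer in GC and CpG than genes without a peak. Over the 300-base window around the TSS the median GC content of members was 59.7% (quartiles 53.3 and 66.3), against 47.7% (41.0 and 54.3) in the 7796 coding genes with no TSS in a peak and 56.3% in all coding genes. The median CpG ratio was 0.695 (interval 0.688 to 0.704) in members and 0.190 (interval 0.185 to 0.195) in genes without a peak. It was 0.805 both in genes with a TSS in a peak of at least 5000 bp and in genes with a TSS in a shared peak. A ratio of at least 0.6 was found in 62.3% of members and 10.5% of genes without a peak, and a ratio under 0.4 in 20.7% and 79.2%. Members were counted per peak here and the other groups once per gene. Counted per gene, the 7345 genes with a member had a median ratio of 0.716, and 65.5% had at least 0.6.

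**Figure D5:**
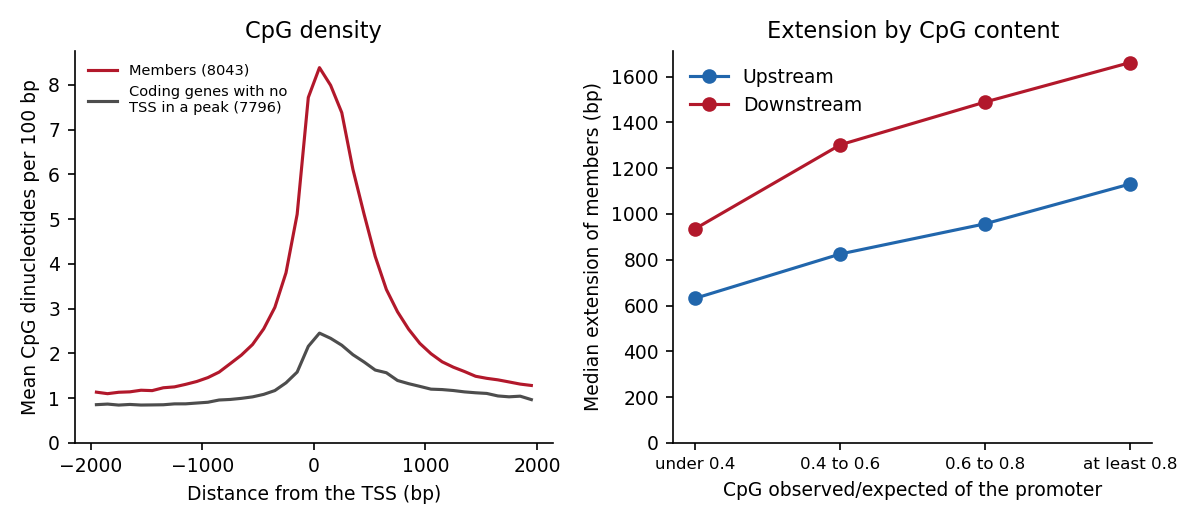
Left, mean number of CpG dinucleotides per 100 bp by distance from the TSS in bp, for the 8043 members and the 7796 coding genes with no TSS in a peak. Right, median upstream and downstream extension of members in bp, by CpG observed/expected ratio of the promoter: both rise from the lowest class (631.5 and 935.5 bp) to the highest (1131 and 1661.5 bp).

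The first 100 bp of the gene held a mean of 8.39 CpGs in members and 2.45 in genes without a peak. Members with CpG-rich promoters were wider on both sides. From the 1666 members with a ratio under 0.4 to the 2746 with at least 0.8, the median width went from 1764.5 to 2993.5 bp, the upstream extension from 631.5 to 1131 bp and the downstream extension from 935.5 to 1661.5 bp. Base composition also differed between the inside of the peaks and the sequence just outside. Each inside part ran from the TSS, where CpGs were densest, to the edge, so that no step at the edge itself was measured. Inside the peak the median GC content was 49.6% upstream of the TSS and 52.9% downstream, over sides of at least 100 bp. In the 500 bp just outside the 2 edges it was 46.0% and 46.6%. The mean number of CpGs per 100 bp was 3.27 and 3.96 inside and 1.66 and 1.58 outside.

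The 4 motifs that contain a CpG were found in more of the members than of the genes without a peak. GGGCGG was found in 59.6% of member windows, 46.2% of all autosomal coding promoters of the same length and 17.0% of those without a peak. CCGGAAG was in 13.3%, 11.4% and 2.59%, TGACGTCA in 2.69%, 2.48% and 0.988%, and CGCATGCG in 2.98%, 2.39% and 0.423%. CCAAT differed little, with 36.4%, 38.0% and 39.3%, and so did AAGATGG, with 5.68%, 6.37% and 5.37%. TATAAA and TGAGTCA went the other way. TATAAA was in 7.87% of members, 12.7% of all promoters and 21.8% of those without a peak, and TGAGTCA in 3.59%, 4.47% and 6.58%. A forward TATAAA that began between 40 and 20 bases before the TSS was found in 80 members (0.995%), against 2.55% and 5.09%. The median width of those 80 peaks was 2468 bp, with 939.5 bp upstream and 1258.5 bp downstream. These differences were not particular to members, whose shares are per peak while those of the other groups are per gene. Counted per gene, the 7345 genes with a member had GGGCGG in 62.5%, CCGGAAG in 14.2% and TGACGTCA in 2.86%. CGCATGCG was in 3.17% of those genes, TATAAA in 7.72% and TGAGTCA in 3.49%. In genes with a TSS in a peak of at least 5000 bp and in genes with a TSS in a shared peak, GGGCGG was found in 67.1% and 64.4%. In the same groups CCGGAAG was in 15.8% and 24.7%, TGACGTCA in 3.73% and 4.41%, and CGCATGCG in 3.83% and 4.38%. TATAAA was there in 6.64% and 6.51%, and TGAGTCA in 2.77% and 2.89%. A match is a run of letters and was not tested as a binding site.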

How the data were processed

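The authors sequenced the libraries on the IonTorrent Proton, trimmed reads with Trim Galore, aligned them to mm10 with bowtie keeping single alignments, removed duplicates with Picard, called peaks with MACS2, filtered the peaks against the ENCODE blacklist and fused overlapping ones with GenomicRanges. FastQC, SAMtools and deepTools are named in the submitters' processing notes. The deposited list holds interval starts and ends in bp. Which libraries entered the merge is not given in the sources used here, and 0 columns hold values per sample.

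Starts were raised by 1 to count from 1. Annotation was GENCODE vM21 on GRCm38, the same build as mm10. The reference TSS was taken among the protein-coding transcripts of the gene that start in the peak, by best APPRIS rank, lowest support level, longest spliced length and identifier. Extensions are distances from that base to the peak edges. A gene with starts in several classes was counted as a member gene first, then as one in a peak of at least 5000 bp, then as one in a shared peak. Shares have Wilson intervals and medians have order-statistic intervals, at 95%. No test was run, since peaks are not replicates. The geometry code was tested on simulated data. Scripts ran in Python 3.11.15 with numpy 2.4.6 and scipy 1.17.1.

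The members, the 22 gene lists (patterns of symbols) and the marker lists were chosen with earlier results of these data known. Genes were named by rule: the study's genes and the markers, the 5 members at each extreme of width and of reach on either side, those next to the width limit, the 2 widest and 2 narrowest genes of each list, and the 5 longest first introns covered whole. A few genes that the rule names are not reported here. Sequences were read from GRCm38. Printed were 250 bases before the TSS of the named genes and of the members with most matches to a motif.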

Additional observations from a re-analysis of the deposited data

How the results depend on the processing

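The downstream median exceeded the upstream median under each of the 7 alternatives that changed either. Of 49 alternative values, 12 stayed inside the interval of the reported value or within 1.5 times the reported count, and 37 moved outside it. Ignoring noncoding genes moved the median width to 2681 bp, the upstream and downstream medians to 973 and 1476 bp, and the share of coding genes with a member to 40.8%. Transcripts tagged basic gave a width of 2674 bp, extensions of 962 and 1482 bp and 28.7% of intron 1 covered. A width limit of 3000 bp left 4967 members with a width of 1892 bp and extensions of 653 and 1100 bp. With that limit 69.5% reached further downstream, 90.4% covered all of exon 1, 17.6% of intron 1 was covered and 22.2% of genes had a member. Joining peaks under 1 kb apart gave a width of 2862 bp, extensions of 1078 and 1499 bp, 64.7% further downstream, 94.4% with all of exon 1, 32.2% of intron 1 and 26.5% of genes. Measured from the most upstream coding TSS, the extensions were 881 and 1477 bp, with 70.6% further downstream and 28.9% of intron 1 covered. From the most downstream one they were 1037 and 1321 bp, with 60.1%, 92.6% with all of exon 1, and 23.6% of intron 1. Members with 1 coding TSS had 819 and 1282 bp, 66.3% further downstream, 89.6% with all of exon 1 and 18.4% of intron 1. The cause of these shifts was not tested beyond the change of rule itself.

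Adding chromosome X gave 8391 members and dropping the width limit 9852. A merged interval is at least as wide as each peak that entered it. Widths and reaches therefore describe the union of whichever libraries entered the merge. Edges follow the peak caller's threshold and fragment length, which the list does not give. No paired analysis was possible because the list has no value for any library, and for the same reason no replicate could be left out. The study states read totals for each library, which are not used here, since the list gives no count of reads at a peak or at a start without one.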
